A study of Mus musculus with 6 samples.

Results

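GUCY1A3 (ENSG00000164116) encodes the alpha subunit of soluble guanylate cyclase, the intracellular receptor for nitric oxide. It is 1 of 13702 genes in the deposited count table, found there by its name, and was chosen by its counts, which stood well above 0 in KO and near 0 in WT. Its own difference between the genotypes is therefore given as a description with no test. The table came from RNA sequencing of pancreatic islets of mice aged 12 weeks. There were 3 libraries from β-PCKO mice (KO), which lack the mitochondrial enzyme pyruvate carboxylase in β-cells, and 3 from wild-type littermates (WT). The driver of the β-cell deletion is not stated in the labels. Nothing in the labels ties the libraries to separate animals. The p-values therefore reflect the spread between libraries, which may be technical.

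Soluble guanylate cyclase is a heterodimer of an alpha and a beta subunit. Nitric oxide binds a heme held by the beta subunit, and the pair of catalytic domains then turns GTP into cyclic GMP. Cyclic GMP acts through cGMP-dependent protein kinases, cyclic nucleotide-gated channels and phosphodiesterases, and is best known for relaxing vascular smooth muscle. In islets, nitric oxide and cyclic GMP have been studied as modulators of hormone secretion.

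The mouse gene is now named Gucy1a1, with Gucy1a3 among its RefSeq synonyms. In GRCm38, the mouse build that the submitters' notes name as mm10, it lies on the minus strand of chromosome 3 from 82092427 to 82145946. Its 2 protein-coding transcripts in the GENCODE basic set each have 9 exons and the same coding length of 2073 bases. The gene of the partner beta subunit, Gucy1b1, lies on the same strand from 82032004 to 82074711, with 17715 bases and no other RefSeq gene (0) between them. These positions describe the mouse genes. The counts themselves stand under human identifiers and names, and the sources used here do not say how mouse reads reached them.

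The libraries differed in depth and content. Total counts ran from 224898 to 225561 in KO and from 35906 to 377876 in WT. The KO libraries were close to one another, with a chi-square per degree of freedom of 1.96 to 2.02 between pairs, against 16.5 to 35.1 between WT pairs, where 1 is sampling noise. Markers of squamous epithelium took 20.6% of the counts of WT replicate 2, against at most 0.130% in any other library, and markers of fibrous connective tissue took 1.06% in WT replicate 3, against at most 0.250% elsewhere. The gene for pyruvate carboxylase, PC, had 0 counts in each KO library and 0, 4 and 0 in WT replicates 1 to 3, so it does not check the labels. Of 11 β-cell markers 3 were listed and of 10 markers shared by islet endocrine cells 8. The β-cell markers took 0.0849% to 0.112% of counts in KO and 0.00159% to 0.0446% in WT, nearly all of them counts of MAFA (670 of the KO counts and 37 of the WT counts), while PCSK1 had 0 counts in KO and 6 in WT and NKX6-1 had 1 in each genotype. The endocrine markers took 0.365% to 0.387% of counts in KO, and 0.577%, 0.0251% and 0.0916% in WT replicates 1 to 3. Most of these were counts of PAX6, INSM1 and NEUROD1, while CHGA, CHGB and SCG5 had 0 counts in KO and 1 each in WT. The insulin, glucagon and somatostatin genes have no row under these names and were not analysed here.

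GUCY1A3 was found in every KO library and was at or next to 0 in every WT library. It had 82, 109 and 112 counts in KO replicates 1 to 3. It had 0, 1 and 0 counts in WT replicates 1 to 3. The groups did not overlap, and the only WT count fell in the deepest library. As a share of all counts, GUCY1A3 stood at 364 CPM (counts per 1000000) in KO replicate 1, with a 95% exact Clopper-Pearson interval of 289 to 451. It stood at 484 CPM (398 to 584) in KO replicate 2 and 498 CPM (410 to 599) in KO replicate 3. In WT the upper ends of the intervals were 103 CPM in WT replicate 1, 14.7 CPM in WT replicate 2 and 27.2 CPM in WT replicate 3, all below the lowest lower end in KO. Intervals cover counting error only. On library sizes scaled by edgeR's TMM method, the mean was 423 ± 67.7 CPM in KO and 1.33 ± 2.31 CPM in WT (SD, n = 3 each). Within KO, replicate 1 was the lowest, and the spread of the 3 counts gave a chi-square per degree of freedom of 2.58.

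The summed counts, 303 in KO and 1 in WT, gave a ratio of 189 on TMM-scaled sizes (95% exact interval 33.7 to 7495). Because a single WT count sets this ratio, the bounds against each WT library say more. Against WT replicate 1 alone, where a count of 0 was taken to allow 3 counts, GUCY1A3 was at least 5.48-fold higher in KO. Against WT replicate 3 alone it was at least 22.3-fold higher, and against WT replicate 2 alone the ratio was 106 (18.8 to 4190). The size of the bound follows the depth of the library it is set against. At the KO level, 16.4 counts would fall in WT replicate 1, 106 in WT replicate 2 and 67.0 in WT replicate 3, against the 0, 1 and 0 found. Among 730 genes with at least 50 counts in each KO library, 4 had at most 1 count over the WT libraries, GUCY1A3 among them, with CPEB1, UCP2 and MYH4.

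**Figure D1:**
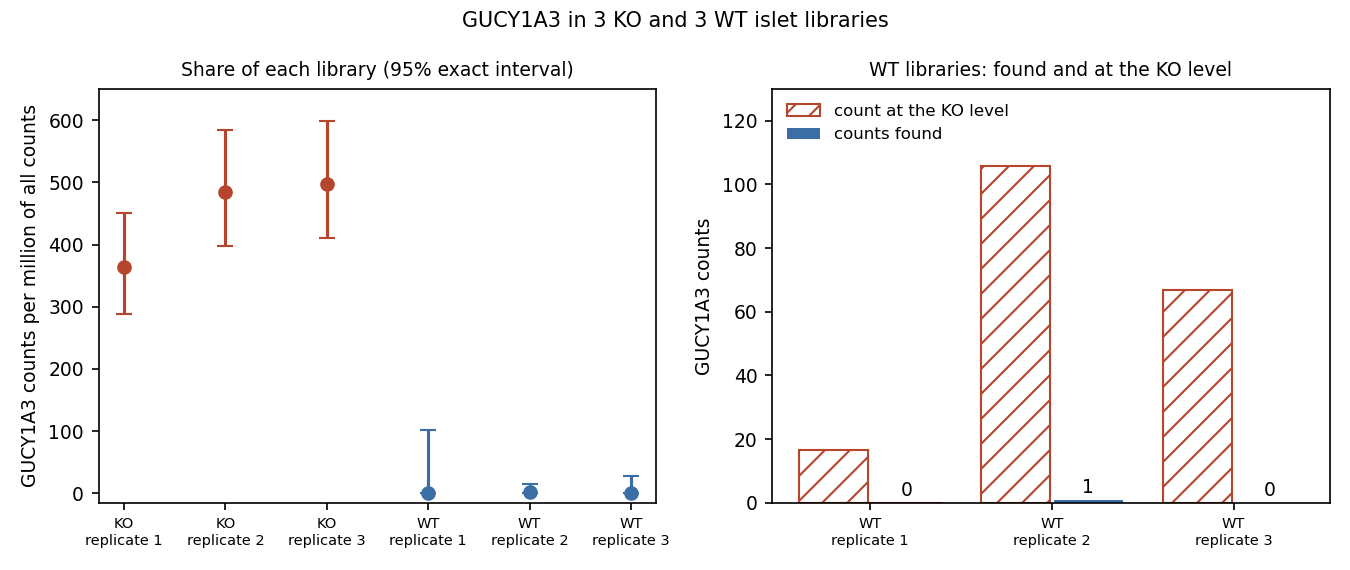
Left, GUCY1A3 CPM of all counts in each KO (red) and WT (blue) library, with 95% exact intervals for counting error. Right, the counts each WT library would hold at the KO level (hatched, 16.4, 106 and 67.0) beside those found (blue, 0, 1 and 0).

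In bulk islets, fewer cells of a type and less RNA per cell cannot be told apart. WT replicate 1 is the WT library whose endocrine markers took a share nearest to that of the KO libraries, and WT replicates 2 and 3 held less of them. Set against the summed counts of the 8 endocrine markers, GUCY1A3 had 94.0, 133 and 132 counts per 1000 marker counts in KO replicates 1 to 3. The values in WT replicates 1 to 3 were 0, 10.5 and 0, where 3 counts would be 14.5, 31.6 and 24.2 per 1000. The ratio of summed counts on that scale, chosen after the data were seen, was 50.7 (9.04 to 2011). It rests on the counts that chose the gene and is no separate support. The marker sum did not separate the genotypes, as its share in WT replicate 1 lay above the KO libraries and in WT replicates 2 and 3 below them. Its members NEUROD1 (adjusted p 0.0450) and RFX6 (adjusted p 0.0444) rose in KO in edgeR. RFX6 had 0, 1 and 2 counts in WT replicates 1 to 3. It reached the level of edgeR's low-count filter, 10 counts at the median depth, in no WT library. RFX6 was thus tested through KO, where it was high, and its call is a description. PAX6 (adjusted p 0.544) and INSM1 (adjusted p 0.936) were not called in the same test. Most of the marker sum came from PAX6 (1262 counts in KO and 183 in WT), INSM1 (771 and 191) and NEUROD1 (449 and 40). CHGA, CHGB and SCG5, also in the sum, had 0 counts in KO and 1 each in WT. The part of cell composition in the GUCY1A3 level was not tested.

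Marker lists of other cells give a further set of values beside the GUCY1A3 level. The smooth muscle and pericyte list, 10 of 13 markers listed, took 0.0421% to 0.0467% of counts in KO and 0.0151% to 0.0923% in WT, so the KO range lay inside the WT range. Its members ran in both directions. NOTCH3 and CSPG4 were at 0 in KO, with 16 and 2 counts in WT, all in WT replicate 2, and ACTA2 had 1 count in KO and 12 in WT. ABCC9 had 54 counts in KO and 15 in WT, a ratio of 2.25 (1.25 to 4.29), and MYH11 had 45 in KO and 12 in WT, a ratio of 2.34 (1.22 to 4.86). These intervals cover counting error only. Neither gene was called in edgeR (adjusted p 0.462 and 0.408), and the values of both overlapped between the groups. Endothelial markers, 7 of 9 listed, took 0.00133% to 0.00266% in KO and 0.00278% to 0.0103% in WT. Their counts were few, 6, 3 and 3 in KO replicates 1 to 3 and 1, 30 and 14 in WT replicates 1 to 3. Each KO share lay below each WT share, but that of WT replicate 1 rests on 1 count. Neuronal markers, 7 of 9 listed, took 0.180% to 0.218% in KO and 0.0246% to 0.214% in WT. These too were mixed, as NEFM, a neurofilament gene, had 143 counts in KO and 0 in WT, while the synaptic gene SYN1 had 7 in KO and 31 in WT, and GAD1 and RBFOX3 had 0 in KO and 1 each in WT. None of the 6 platelet markers (0) was listed. Of the 9 pituitary markers 2 were listed, and GH1 alone carried all of their 3.17% to 3.23% of counts in KO, against 0.00185% to 0.0195% in WT. The other, GHRHR, had 0 counts in KO and 1 in WT, and the rest of the list has no row. The part of these cells in the GUCY1A3 level was not tested.

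The other subunits of soluble guanylate cyclase were close to 0 in both genotypes. GUCY1B3 (ENSG00000061918), the beta subunit that binds the heme, had 4, 0 and 5 counts in KO, against 0, 0 and 1 in WT. The ratio of its summed counts was 5.62 with an interval of 0.779 to 246, which spans 1. GUCY1A2 (ENSG00000152402), the alternative alpha subunit, had 4, 2 and 3 counts in KO, against 1, 5 and 3 in WT, a ratio of 0.624 (0.219 to 1.78). Both were too shallow for the filtered test. Without a filter, edgeR gave GUCY1B3 an adjusted p of 0.425 and GUCY1A2 one of 0.958. Whether GUCY1B3 differed between the genotypes was not detectable at this depth. GUCY1B2 has no row and was not analysed here. The membrane guanylate cyclases, which nitric oxide does not switch on, had 4 of 5 genes listed and 0 tested, with at most 11 counts summed over the 6 libraries. Of the genes for the peptides that switch on some of these cyclases, NPPC was listed, with 1 count in all. NPR3, the receptor that clears these peptides, had 15 counts over the KO libraries and 6 over the WT libraries, a ratio of 1.56 (0.572 to 4.91).

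The rest of the nitric oxide and cyclic GMP pathway gave 1 change among the genes that passed the filter. Of 70 other genes on lists written from textbook roles, 50 were listed and 10 passed edgeR's filter on low counts. Of these 10, 1 rose in KO, against 5.04% of all 2560 tested genes, and none (0) fell, against 3.01% (8.05% in either direction). These counts lean on the filter. The filter asks for its level in as many libraries as a group holds. A gene near 0 in KO could thus pass only if each WT library, the shallow WT replicate 1 included, reached it. The count of genes that fell is therefore partly set by the filter. With no filter, edgeR called 3 genes of the lists, PDE5A higher and PDE3A and PDE3B lower in KO. At an unadjusted p under 0.05, 2 of the 10 were higher and 2 lower, where 28.5% of all tested genes had such a p. DESeq2 called 1 higher and 1 lower (17.5% of all tested genes called), and limma-voom 2 higher and 0 lower (12.2% called). Without WT replicate 1, where 46.6% of all genes tested were called, 7 genes of these lists passed in edgeR. CAV1, DYNLL1, KCNMA1 and PDE5A were then higher in KO, and HSP90AA1, HSP90AB1 and GTF2I, a transcription factor gene with 10 counts in KO and 115 in WT, were lower. The median log2 fold change of the 10 was 0.64, beside −0.14 over all tested genes. The values of 4 of the 10 did not overlap between the groups, all higher in KO, against 22.6% of all tested genes that were higher with no overlap.

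PDE5A (ENSG00000138735), the phosphodiesterase that breaks down cyclic GMP and is itself a substrate of its kinase, was the gene that rose. It had 96, 85 and 96 counts in KO, against 2, 14 and 20 in WT. On TMM-scaled sizes that was 404, 354 and 402 CPM in KO and 51.5, 56.0 and 126 CPM in WT, so every KO library stood above every WT library. It was higher by 2.25 ± 0.58 on the log2 scale (SE), and edgeR's quasi-likelihood test gave an adjusted p of 0.0469. The call passed in 8 of 16 alternatives and was lost without any 1 KO library, without WT replicate 2, with DESeq2 size factors, with library totals, with the replicate number as a block and with the KO libraries summed to 1, which gave the highest adjusted p, 0.744. Its log2 fold change stayed between 2.05 and 3.55 in all 16.

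Other phosphodiesterases that act on cyclic GMP did not pass the filter. Of these, PDE3A and PDE3B reached its level in WT replicate 3 alone. PDE3A, which breaks down cyclic AMP and is inhibited by cyclic GMP, had 1, 1 and 3 counts in KO, against 0, 7 and 86 in WT. PDE3B, its relative known in β-cells and fat, had 0, 3 and 0 counts in KO, against 0, 1 and 54 in WT. Most WT counts of both fell in WT replicate 3 and WT replicate 1 had none (0). Without a low-count filter both passed as lower in KO, with adjusted p of 0.0149 for PDE3A and 0.0448 for PDE3B in edgeR. PDE1A, a calcium-activated member, had 20 counts over the KO libraries and 8 over the WT libraries, a ratio of 1.56 (0.658 to 4.10).

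**Figure D2:**
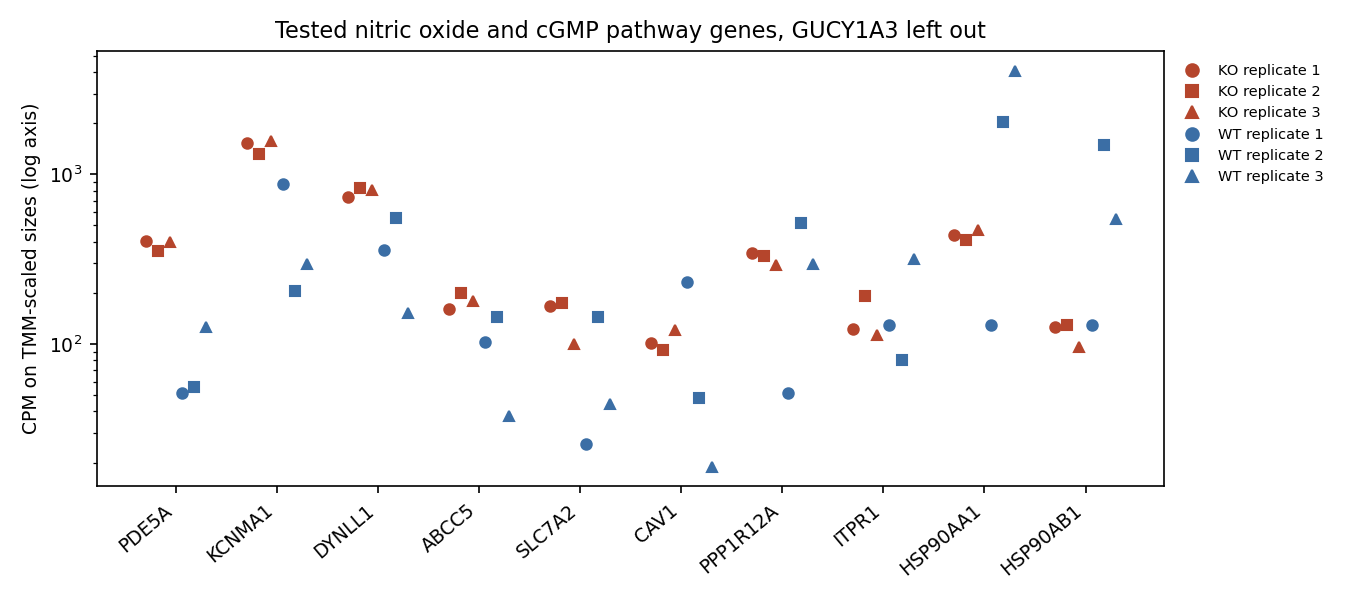
CPM on TMM-scaled sizes (log axis) of the 10 tested nitric oxide and cyclic GMP genes in each KO (red) and WT (blue) library. For PDE5A, KCNMA1, DYNLL1 and ABCC5 every KO point lies above every WT point, while WT replicates 2 and 3 stand far above the KO points for HSP90AA1 and HSP90AB1.

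Among the kinases and their substrates, no other gene passed. KCNMA1, the large-conductance calcium-activated potassium channel and a substrate of cGMP kinase, had 1523, 1322 and 1569 CPM in KO and 875, 204 and 297 CPM in WT. Its log2 fold change was 1.74 ± 0.62 (SE; adjusted p 0.109 in edgeR), and it passed with limma-voom, against WT replicate 1 alone and when WT replicate 1 was left out. ITPR1, an intracellular calcium release channel, had a log2 fold change of −0.32 ± 0.68 (SE; adjusted p 0.772), and PPP1R12A, the targeting subunit of myosin phosphatase, one of 0.094 ± 0.67 (SE; adjusted p 0.935) in the same test. Both turned direction under some alternatives. The kinase genes themselves did not pass the filter. PRKG1 had 1, 0 and 3 counts in KO, against 0, 5 and 45 in WT, and PRKG2 had 4, 4 and 1 counts in KO but 0 in each WT library, at least 1.87-fold higher in KO. Neither was called in edgeR without a filter (adjusted p 0.105 and 0.238). RGS2, a regulator of G protein signalling that the kinase activates, had 0 counts in KO, and all of its 20 WT counts came from WT replicate 3.

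Genes that supply or regulate nitric oxide and the cyclase did not pass in edgeR. DYNLL1, the dynein light chain first described as an inhibitor of neuronal nitric oxide synthase, averaged 792 ± 46.6 CPM in KO and 354 ± 200.2 CPM in WT (SD, n = 3 each; log2 fold change 1.16, adjusted p 0.194 in edgeR). SLC7A2, a carrier of arginine, the substrate of the synthases, had a log2 fold change of 0.89 (adjusted p 0.418), and CAV1, the caveolar protein that binds endothelial synthase, one of 0.39 (adjusted p 0.781) that turned direction without WT replicate 3. The chaperone genes HSP90AA1 and HSP90AB1, whose proteins bind the cyclase during its maturation, had log2 fold changes of −2.25 ± 0.92 and −2.65 ± 0.77 (SE), with adjusted p of 0.148 and 0.0637 in edgeR. HSP90AA1 had 442, 409 and 473 CPM in KO and 129, 2036 and 4097 CPM in WT, so WT replicate 1 lay below the KO libraries and the other WT libraries above them. It was called in opposite directions in edgeR by which WT libraries were used, with a log2 fold change of 1.85 against WT replicate 1 alone (adjusted p 0.0120) and −2.33 without WT replicate 1 (adjusted p 0.00388). Of the synthase genes, NOS2 had 1 count over all libraries, in WT replicate 2, and NOS1 and NOS3 have no row and were not analysed here. The cyclic GMP exporter gene ABCC5 had a log2 fold change of 0.92 ± 0.67 (SE; adjusted p 0.371).

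Cyclic AMP is the sister messenger, made by cyclases with related catalytic domains, and in β-cells it amplifies insulin secretion. Of 30 genes of this branch, 28 were listed and 7 tested. Of these, 2 rose in KO, against 5.04% of all tested genes, and none (0) fell, against 3.01%. At an unadjusted p under 0.05 in edgeR, 4 were higher and 0 lower, where 28.5% of all tested genes had such a p. DESeq2 and limma-voom each called 2 higher and 0 lower, where they called 17.5% and 12.2% of all tested genes. These counts lean on the filter. PRKACA, PRKAR2B and RAPGEF4 reached its level of 10 counts at the median depth in no WT library, so they were tested through the KO libraries in which they were high, and the count of genes that rose is no support for a difference of the branch. ADCY9, an adenylyl cyclase, had 0, 1 and 0 counts in KO, against 1, 24 and 14 in WT. PRKAR2A, a regulatory subunit of the kinase, had 2, 2 and 4 counts in KO, against 1, 37 and 8 in WT. Neither passed the filter. PRKACA, the catalytic subunit of cyclic AMP-dependent kinase, had 44, 40 and 27 counts in the KO libraries, against 1, 6 and 2 in the WT libraries. Its log2 fold change was 2.92 ± 0.71 (SE; edgeR adjusted p 0.0430, or 0.0121 without a filter). PRKAR2B, a regulatory subunit of the same kinase, had 26, 14 and 14 counts in the KO libraries, against 0, 2 and 2 in the WT libraries. Its log2 fold change was 3.01 ± 0.75 (SE; edgeR adjusted p 0.0449, or 0.0373 without a filter). Without WT replicate 1, where 46.6% of all genes tested were called, 8 genes of the branch passed. PRKACA, PRKAR2B, PDE4D, RAPGEF4, GNAS and CREB1 were then higher and ADCY9 and PRKAR2A lower in KO. The calls of PRKACA and PRKAR2B were lost without any 1 KO library, without WT replicate 2 or WT replicate 3, against WT replicate 1 alone, with the KO libraries summed to 1 and with the replicate block. Both kept their direction in all 16 alternatives, with a log2 fold change of 2.60 to 4.21 for PRKACA. PDE4D, a phosphodiesterase specific for cyclic AMP, had 50, 47 and 48 counts in the KO libraries, against 1, 24 and 2 in the WT libraries (edgeR adjusted p 0.135). RAPGEF4, the Epac exchange factor that cyclic AMP opens, had a log2 fold change of 1.87 (adjusted p 0.136). GNAS and CREB1, the stimulatory G protein subunit and a transcription factor that the kinase activates, had log2 fold changes of 0.92 and 1.04 (adjusted p 0.319 and 0.212). PRKAR1A had one of 0.067 (adjusted p 0.953). Among the 7 tested genes, 6 were higher in KO with no overlap between the groups, against 22.6% of all tested genes (34.9% in either direction). The median log2 fold change of the 7 was 1.87, beside −0.14 over all tested genes. This median and the count with no overlap take in the 3 genes tested through KO alone. They also take in PDE4D, whose WT counts fell mostly in WT replicate 2, so both are a description.

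**Figure D3:**
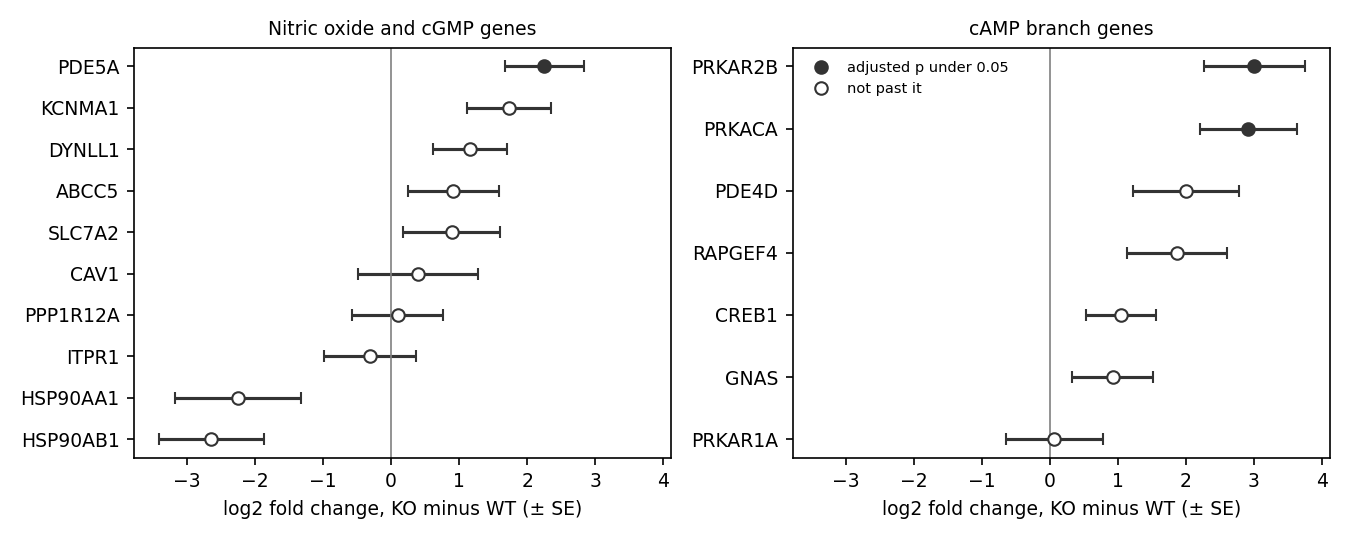
Log2 fold changes, KO minus WT, with standard errors for the tested genes of the nitric oxide and cyclic GMP lists (left) and the cyclic AMP branch (right). Filled points, PDE5A, PRKAR2B and PRKACA, passed an adjusted p of 0.05 in edgeR.

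The deposited table places GUCY1A3 in 8 KEGG pathway terms, among them cGMP-PKG signaling, vascular smooth muscle contraction, gap junction and oxytocin signaling. These terms share many genes, and together they hold 395 other genes, of which 97 were tested. Of the 97, 9 rose (9.28%, against 5.04% of all tested genes) and 3 fell (3.09%, against 3.01%) in edgeR. The median log2 fold change was 0.28. For cGMP-PKG signaling, 39 of 127 other genes were tested, 3 rose and 1 fell. The 3 were PDE5A, MEF2A and ADRA2A. MEF2A, a transcription factor, counted 269, 274 and 223 reads in the KO libraries, against 13, 38 and 53 in the WT libraries, a log2 fold change of 1.99 (edgeR adjusted p 0.0451). ADRA2A, the adrenergic receptor that restrains insulin secretion, had 18, 14 and 14 counts in KO but 0 in each WT library, at least 9.57-fold higher. ADRA2A, like CACNB2, CACNG2 and GRIN1 of the other terms, reached the filter's level in no WT library and was tested through KO, so the counts of genes that rose are a description.

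Vascular smooth muscle contraction had 20 genes tested and no call (0) in edgeR. There were 5 genes at an unadjusted p under 0.05, 3 called by DESeq2 and 3 by limma-voom, beside 28.5%, 17.5% and 12.2% of all tested genes by the same rules. Long-term depression had 12 tested and no call (0) in edgeR. There were 4 genes at an unadjusted p under 0.05 and 2 called by each of the other tools. For gap junction, 2 of 12 tested genes rose. GJD2, which encodes the connexin that couples β-cells, reached 224, 201 and 237 counts in the KO libraries, against 3, 24 and 3 in the WT libraries, a log2 fold change of 3.86 ± 0.65 (SE; edgeR adjusted p 0.0237). TUBA1A, an alpha tubulin of a family with similar members, averaged 3383 ± 194 CPM in KO and 737 ± 278 CPM in WT (SD, n = 3 each), with an adjusted p of 0.0496 in edgeR.

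The oxytocin and circadian terms added CACNB2 and CACNG2, named as calcium channel subunits. They were at least 20.4-fold and 16.9-fold higher in KO, with 0 counts in WT. The same terms hold CAMK2B and the glutamate receptor gene GRIN1. CAMK2B, a calmodulin-dependent kinase, had 152 counts over the KO libraries and 3 over the WT libraries, a ratio of 31.6 (10.6 to 155), and GRIN1 had 177 and 2, a ratio of 55.2 (15.1 to 460). EEF2, a translation elongation factor, and MAPK14, the p38 kinase of the platelet term, had log2 fold changes of −2.25 and −3.13 and both fell (edgeR adjusted p 0.0482 and 0.0349). Each call named here among the genes of these terms was lost without any 1 KO library, and they passed in 7 (EEF2 and TUBA1A) to 12 (GJD2) of 16 alternatives. Each kept its direction in all 16, with log2 fold changes of 3.45 to 5.18 for GJD2 and 1.79 to 3.51 for TUBA1A. Except for GJD2, each was also lost without WT replicate 2, the library rich in squamous markers. The medians of 7 of the 8 terms were above that of all tested genes, and that of platelet activation, at −0.39, was below it.

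**Figure D4:**
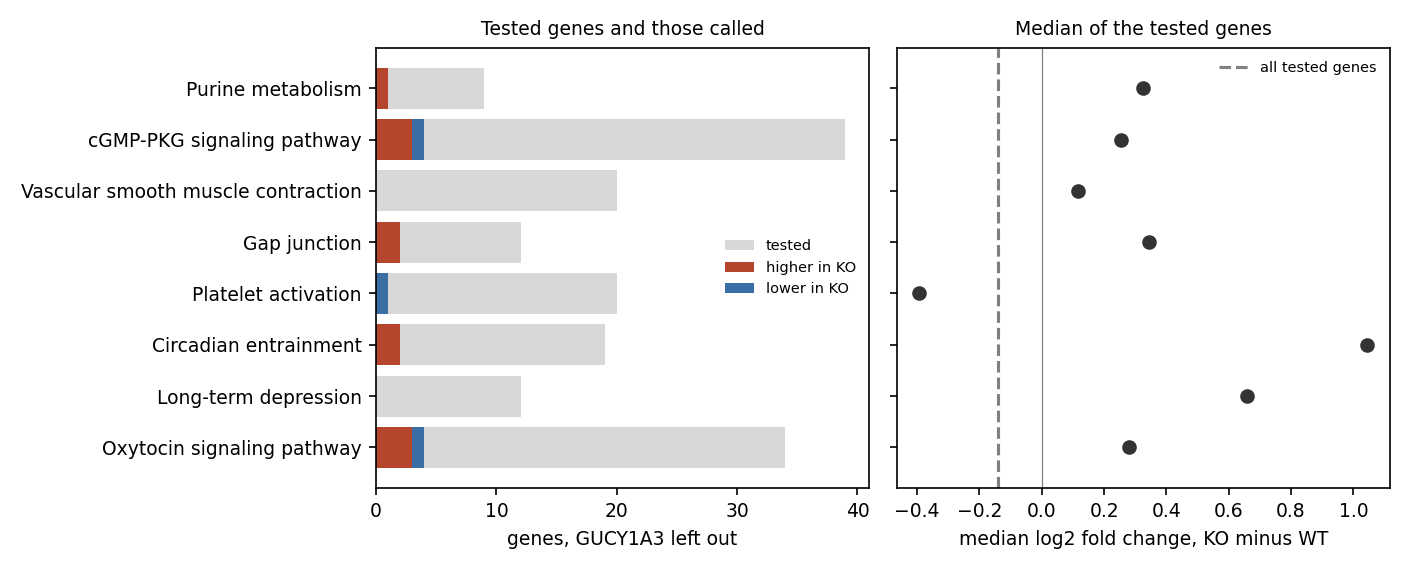
For each of the 8 pathway terms that the deposited table gives GUCY1A3, the tested genes (grey) with those higher (red) and lower (blue) in KO past an adjusted p of 0.05 (left), and the median log2 fold change of the tested genes (right, with the median of all tested genes dashed at −0.14). Circadian entrainment has the highest median, 1.05, and platelet activation the lowest.

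The genes whose profile over the 6 libraries was most like that of GUCY1A3 were found by Pearson correlation of log2 CPM among the other 2559 tested genes. They are named as a description, since their values chose them, and the measure rests on 2 groups of libraries with the closely alike KO libraries in it. Among the 8 highest were EYS (0.998), MYH4 (0.998), CPEB1 (0.997), UCP2 (0.997), TOX3 (0.997), TSC22D2 (0.996) and SULF1 (0.996). A correlation of at least 0.95 was reached by 116 genes and one of at least 0.99 by 24, beside a median of 0.18. Such a value is thus shared with many genes that differ between the groups.

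These 7 genes differ in level and in size of difference. MYH4, a fast myosin heavy chain with close paralogs, was the nearest in counts, with 112, 94 and 118 in KO, against 0, 1 and 0 in WT, a ratio of 202 (36.0 to 8013). UCP2, the mitochondrial uncoupling protein gene known to be active in β-cells, had 61, 69 and 52 counts in KO, against 0, 1 and 0 in WT, a ratio of 114 (20.1 to 4512). CPEB1, a regulator of translation, had 59, 62 and 59 counts in KO but 0 in each WT library, at least 37.4-fold higher. The row named EYS, a photoreceptor gene known from humans, had 27, 30 and 34 counts in KO but 0 in each WT library. That was at least 18.9-fold higher, but how mouse reads reached this human name is not stated, so no mouse gene is read from it. TOX3, which encodes a nuclear protein that binds DNA, had 24, 37 and 27 counts in KO, against 0, 1 and 0 in WT, a ratio of 54.9 (9.61 to 2194). TSC22D2 and SULF1 had much smaller ratios, since a correlation does not measure the size of a difference. TSC22D2 had 224, 235 and 221 counts in KO, against 8, 69 and 35 in WT, a ratio of 3.79 (3.10 to 4.67), and SULF1, an extracellular sulfatase gene, had 30, 43 and 41 in KO, against 1, 7 and 4 in WT, a ratio of 5.93 (3.27 to 11.8).

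**Figure D5:**
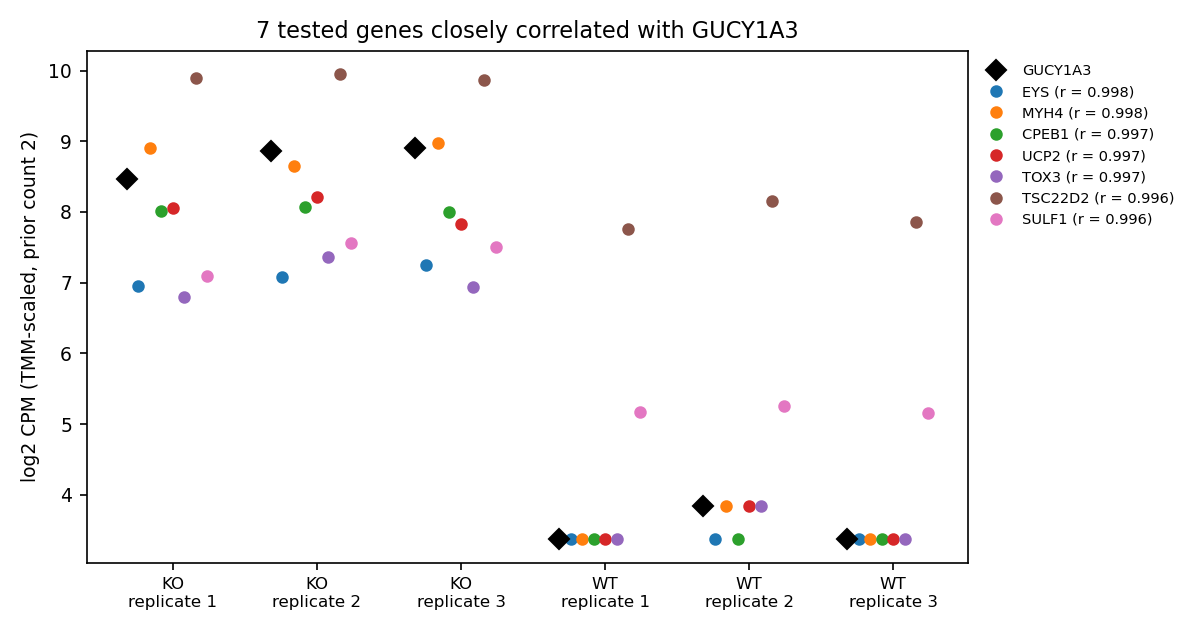
Log2 CPM (TMM-scaled, prior count of 2) of GUCY1A3 (black diamonds) and 7 of the 8 tested genes most correlated with it, in each library. GUCY1A3 and 5 of these 7 lie at or next to the lowest possible value in every WT library, while TSC22D2 and SULF1 keep clear levels there.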

How the data were processed

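The deposited table gives raw counts for each gene in each library, per the file headers, and the 6 later per-sample columns with the same names were not used. Strand-marking libraries were made after removal of ribosomal RNA, per the labels' protocols. HISAT2 2.0.4, cutadapt 1.9.3, edgeR 3.16.5 and HTSeq 0.9.1 are named in the submitters' processing notes without a role. Of 13702 identifiers, all human, none (0) is in the mouse table and 11747 symbols also name a mouse gene. A row without an identifier (1) stayed out.

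All genes were fitted with edgeR 4.0.16 in R 4.3.3 (TMM, filterByExpr, quasi-likelihood F test on genotype, two-sided, Benjamini-Hochberg at 0.05), tried on simulated data. The simulated spread was the same for every gene in both groups, unlike in these libraries, so the trial does not measure error rates here. The SE of an edgeR log2 fold change was worked back from the test, as its absolute value over the square root of F. Alternatives used other scalings and filters, DESeq2 1.42.0, limma 3.58.1 (voom), a replicate block and left-out or summed libraries. GUCY1A3 and the gene lists were chosen with earlier results of these data known. Named genes are GUCY1A3, PC, its fellow subunits, tested list members, called members of its terms and the 8 most correlated genes, of which some are not reported here. A count of 0 was taken to allow 3, summed over the group named, and bounds and ratios use TMM-scaled sizes. Untested list members (among them PDE1A, PDE3A, PDE3B, PRKG1, PRKG2, RGS2, NOS2, NPR3, GTF2I, ADCY9 and PRKAR2A) and single markers were named after their values were seen.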

Additional observations from a re-analysis of the deposited data

How the results depend on the processing

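The GUCY1A3 counts chose the gene, so its direction in these settings is no separate support. The ratio of summed counts was 172 with DESeq2 size factors, 246 with library totals, 364 with TMM sizes from unfiltered genes and 376 with those from genes averaging at least 5 CPM. Leaving out 1 library gave 29.6, a lower bound reached without WT replicate 2, which holds the only WT count, to 283. Against WT replicate 1 alone the lower bound was 5.78 with sizes recomputed over those 4 libraries, and 5.48 with the sizes of all 6. The mean CPM in KO was 458 to 531 with 1 KO library left out, the highest without KO replicate 1, 559 with sizes from unfiltered genes and 564 with those from genes averaging at least 5 CPM. The median log2 fold change of the 2560 genes, −0.14, was −0.26 with DESeq2 size factors, −0.00081 with library totals, 0.66 in the unfiltered fit and 0.69 in that of genes averaging at least 5 CPM.

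Of all tested genes 206 were called in edgeR, 129 higher and 77 lower. The count was 439 without a filter (221 higher, 218 lower), 385 at a mean of at least 5 CPM (223 and 162), 447 with DESeq2 (211 and 236) and 312 with limma-voom (218 and 94). It was 766 against WT replicate 1 alone (509 and 257) and 0 in either direction with the KO libraries summed to 1, where 301 genes had an unadjusted p under 0.05. With 1 library left out it ran from 3 to 1527, from 3 to 816 higher and from 0 to 711 lower. A WT sample left alone is assumed to vary like KO. The causes were not tested.

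Of the nitric oxide and cyclic GMP genes, 0 passed with DESeq2 size factors, library totals or the KO libraries summed, 3 without a filter, 2 at a mean of at least 5 CPM, 2 with DESeq2, 2 with limma-voom and 5 against WT replicate 1 alone. The count was 0 to 7 with 1 library left out. Of the cyclic AMP genes, 0 passed with the KO libraries summed and 0 to 8 with 1 library left out. The replicate numbers were tried as a block, although same-numbered samples correlated at only −0.00216, −0.0149 and 0.0191 and only KO replicate 3 correlated best with its own number. With the replicate block 137 genes were called (106 higher, 31 lower), with 0 of the nitric oxide and cyclic GMP genes and 0 of the cyclic AMP genes.

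Of the genes not called, 5 turned direction in some setting, ITPR1 in 8 of 16. The log2 fold change of HSP90AA1 was 1.85 (adjusted p 0.0120 in edgeR) and that of CAV1 −1.06 against WT replicate 1 alone, and that of CAV1 ran from −0.081 (without WT replicate 3) to 2.02 with 1 library left out. That of ITPR1 was 0.50 without a filter, 0.52 at a mean of at least 5 CPM, −0.64 to 0.63 with 1 library left out, 0.22 against WT replicate 1 alone and 0.96 with the KO libraries summed. PPP1R12A was at −0.046 and −0.040, and PRKAR1A at −0.076 and −0.072, with DESeq2 size factors and with DESeq2. WT replicate 1, with 35906 counts in all, sets the weakest bound on GUCY1A3.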
